A study of Homo sapiens with 12 samples.

Results

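MEC1 cells carrying the SF3B1 K700E substitution were compared with wild-type (WT) MEC1 cells while both were exposed to H3B-8800, and each difference was set beside the one in the vehicle DMSO. MEC1 is an established line from a chronic lymphocytic leukaemia, a B cell cancer. The members were splicing events, counted from RNA-seq, that had at least 20 inclusion plus exclusion reads in each of the 6 H3B-8800 libraries. They numbered 317516 of the 721551 events in the deposited table: 73963 alternative 3′ sites, 50796 alternative 5′ sites, 88532 introns and 104225 exons. Of these, 313032 also reached 20 reads in all 6 DMSO libraries and 4484 did not. By themselves the DMSO libraries read 345874 events at that depth.

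There were 3 libraries in each of 4 groups: WT in DMSO, K700E in DMSO, WT in H3B-8800 and K700E in H3B-8800, with treatment at 75 nM for 6 h. The K700E libraries came from the lines labelled 41, 38 and 15b (replicates 1, 2 and 3), whose genotype label gives both c.2098A>G and c.2106G>A in SF3B1. WT replicates 1 and 2 were the cultures labelled a and b with no base change listed, and WT replicate 3 was the line labelled 34b, which carried c.2106G>A alone. Each culture or line was sampled under both treatments, so the 2 treatment comparisons shared no library but shared their cells. The labels do not say how the lines were made, and effects of making them cannot be told apart from the substitution when WT replicates 1 and 2 serve as controls. Where 3 WT values are listed, WT replicate 3 is the last.

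SF3B1 is a subunit of the U2 small nuclear ribonucleoprotein (U2 snRNP), which binds the branch point of an intron and thereby sets which 3′ splice site is joined to the upstream exon. The K700E substitution, the common SF3B1 change in chronic lymphocytic leukaemia, is known for use of other branch points and of cryptic AG dinucleotides a short way upstream of the usual 3′ site. H3B-8800 is a small molecule that occupies the branch point pocket of the SF3B complex, in WT and mutant cells alike, and is known for skipped exons and kept introns.

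The H3B-8800 libraries held 45840233 to 49891912 exon-exon junction reads over the table's introns, the DMSO libraries 50606877 to 56676172, and a member had a median of 193 to 224 reads in an H3B-8800 library. At 206 reads a level of 50% has a 95% Wilson interval of 43.2% to 56.8%, and at 20 reads one of ±20.1 points, for counting error only. Mean exon inclusion over the exons read in all 12 libraries was 67.5% to 69.1% in H3B-8800 and 81.2% to 81.8% in DMSO, and mean intron retention 13.0% to 15.4% against 3.53% to 4.56%. Summed over the table's introns, unspliced reads (the mean of an intron's exon-intron junctions) were 4.50% to 5.71% of unspliced plus spliced reads in WT and 5.10% to 6.05% in K700E under the drug, with overlapping ranges, and their part in the results was not tested. All 13 B cell markers were read, with a summed 6328 to 7590 spliced RPM (reads scaled to the same library size) in WT and 7916 to 10759 in K700E under H3B-8800. The T and NK cell list of 10 genes summed to 92.2 to 153 and 130 to 150 with CD3G at 0, the myeloid list of 9 to 2.00 to 2.53 and 1.26 to 3.23 with FCN1 at 0, and the fibroblast and epithelial list of 10 to 20.4 to 29.5 and 18.8 to 27.4. The part of these levels in the splicing differences was not tested.

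Under H3B-8800, 3′ splice sites were, as a share of those tested, the kind of event most often called between K700E and WT cells. A difference was called when limma gave a Benjamini-Hochberg adjusted p under 0.05 on log2 inclusion-to-exclusion odds and the group means differed by at least 10 percentage points. Of 111050 events that could be tested, 569 in 412 genes were called, 380 higher and 189 lower in K700E, which is 0.512% of those tested. Among them were 430 alternative 3′ sites at 340 exon starts (3.99% of the 3′ sites tested), 83 introns (0.18%), 54 exons (0.116%) and 2 alternative 5′ sites (0.0271%). By number, the order of the kinds depended on the test: with read-number weights 349 3′ sites were higher and 138 lower against 350 and 97 exons, and on percentage points 419 and 196 against 960 and 318 exons. Sites of 1 exon start share their reads, so a gained site and its lost partner are not independent, and 129 genes had more than 1 called event. Without WT replicate 2, K700E replicate 1 or K700E replicate 3 of the H3B-8800 libraries, the 189 lower events numbered 122, 121 and 119. With WT replicate 3 alone as the control, 218 events were called higher and 93 lower, and the spread then came from the K700E lines alone.

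In DMSO, the same fit called 382 of 109076 events, 250 higher and 132 lower, or 0.35%. Called in both treatments, and in the same direction, were 230 events in 175 genes, which is 60.2% of the DMSO calls and 41.5% of the H3B-8800 calls that could be read in DMSO. None was called in opposite directions, 152 were called in DMSO only and 324 in H3B-8800 only, and 15 more H3B-8800 calls had too few DMSO reads to place. Against WT replicate 3 alone, again with no spread within WT, 136 of the 230 were called in both; the 230 had been chosen with this library among the WT samples, so the count is a description.

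**Figure D1:**
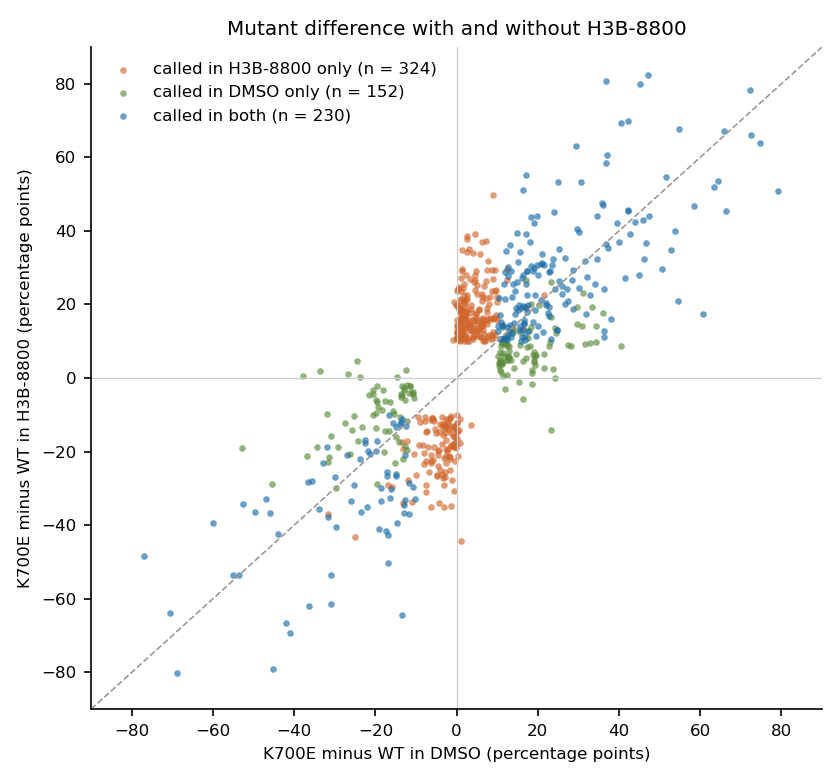
K700E minus WT level in DMSO (horizontal, percentage points) against the same in H3B-8800 (vertical), 1 point per event and coloured by where it was called; the dashed line marks equal differences. The 230 events called in both lie at the lower left and upper right. Median sizes in DMSO and H3B-8800 are 3.15 and 16.9 points for the 324 called in H3B-8800 only. They are 17.5 and 7.56 points for the 152 called in DMSO only. Being called in 1 treatment only in part fixes which size is smaller.

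The persistence differed by kind of event. Of the 275 alternative 3′ sites called in DMSO, 202 (73.5%) were also called in H3B-8800, against 20 of 53 introns (37.7%), 7 of 50 exons (14%) and 1 of 4 alternative 5′ sites. Over the 382 DMSO calls the median difference was 19.2 points in DMSO and, in the same direction, 18.8 points in H3B-8800. The median ratio of the 2 differences was 0.913 for 3′ sites, 0.754 for introns and 0.378 for exons. No 3′ site turned sign, whereas 7 exons and 4 introns did. These ratios start from events chosen in DMSO, and no test was made between the kinds of event.

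**Figure D2:**
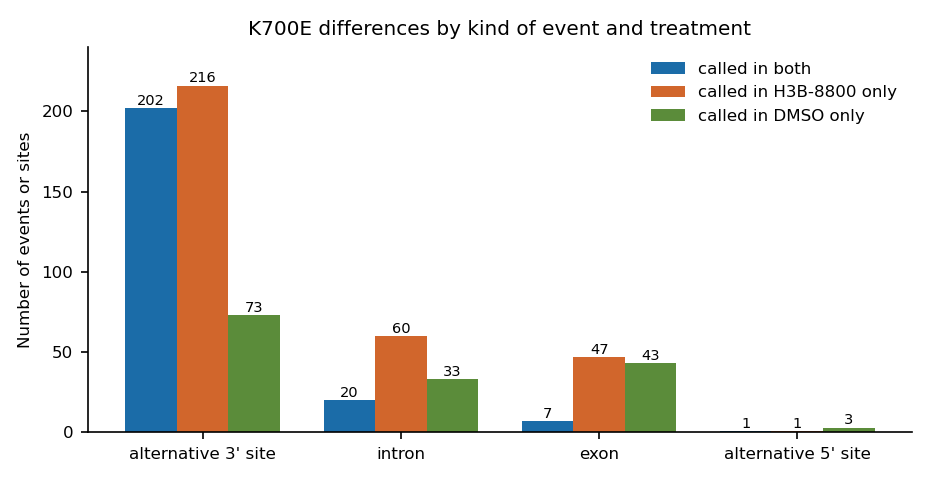
Number of events called in both treatments, in H3B-8800 only and in DMSO only, by kind of event. Alternative 3′ sites make up 202, 216 and 73 of these sets, whereas exons make up 7, 47 and 43.

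The sequences of 12 sites are shown because an annotated transcript covers both the site gained in K700E and the site most used in WT, at the start of a coding exon, and because they span the 3 outcomes. They were chosen after their values were seen. Each run is 5′ to 3′ on the gene's strand, from GENCODE v29 transcripts (GRCh38, hg38), and AG in capitals marks the last 2 bases of the intron before the gained site and then before the WT site.
ZNF530 (both treatments), chr19:57605644-57605695 (+): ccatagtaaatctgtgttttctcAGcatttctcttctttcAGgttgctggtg
ZNF410 (both), chr14:73893751-73893806 (+): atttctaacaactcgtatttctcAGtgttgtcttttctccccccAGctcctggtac
LIG3 (both), chr17:34994229-34994285 (+): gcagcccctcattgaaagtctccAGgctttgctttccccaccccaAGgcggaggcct
ZDHHC16 (both), chr10:97455614-97455669 (+): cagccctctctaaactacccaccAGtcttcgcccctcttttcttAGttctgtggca
ERGIC3 (both), chr20:35556930-35556982 (+): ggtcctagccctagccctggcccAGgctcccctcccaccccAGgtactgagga
PSME2 (both), chr14:24145887-24145936 (-): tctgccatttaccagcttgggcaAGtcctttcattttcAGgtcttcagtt
FASTKD1 (both), chr2:169531481-169531533 (-): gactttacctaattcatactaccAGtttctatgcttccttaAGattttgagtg
HECTD3 (H3B-8800 only), chr1:45008312-45008364 (-): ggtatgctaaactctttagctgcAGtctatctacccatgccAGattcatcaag
TMEM87A (H3B-8800 only), chr15:42217824-42217877 (-): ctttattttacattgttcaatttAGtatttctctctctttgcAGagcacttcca
MRPL27 (H3B-8800 only), chr17:50368289-50368338 (-): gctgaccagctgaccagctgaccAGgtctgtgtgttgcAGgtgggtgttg
ATAD2B (DMSO only), chr2:23754765-23754823 (-): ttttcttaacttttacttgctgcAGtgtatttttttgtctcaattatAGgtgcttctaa
WDR34 (DMSO only), chr9:128635758-128635809 (-): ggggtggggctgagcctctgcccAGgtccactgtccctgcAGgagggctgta

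In these runs the stretch between the 2 sites, which K700E cells add to the exon, ranged from 15 to 24 nucleotides, and more of its bases before the closing AG were C or T than A or G. Transcript sequence covered 28 of the 151 sites raised in both treatments, 17 of 161 raised in H3B-8800 only and 8 of 43 raised in DMSO only, and AG preceded both sites at all of them. The 20 bases before the AG of the gained site were 25.9%, 24.7% and 21.9% A in these 3 sets and 20.2% A at 364 uncalled sites. C or T made up 78.8%, 73.6% and 83.0% of the bases between the sites, the closing AG left out, and 71.5% at the uncalled sites. Covered sites are those with an annotated transcript and are few, so these shares describe them and not all members.

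The sites gained in the 3 outcomes lay at like distances. Of raised sites other than the one most used in WT under H3B-8800 (here the WT site), 122 of 144 raised in both treatments (84.7%) lay 10 to 30 nucleotides upstream of the WT site. The share was 137 of 159 (86.2%) for those raised in H3B-8800 only, 31 of 40 (77.5%) for those raised in DMSO only, and 34.3% over 5172 tested sites. Median distances upstream were 18, 18 and 17 nucleotides, against 29 over all tested sites. The added stretch was a multiple of 3 at 43.7%, 39.1% and 45.5% of the upstream sites, near the 40.1% over all. An annotated exon started at 28.5% of the sites raised in both and at 14.9% of those raised in H3B-8800 only, against 66.6% of uncalled sites. Unlike the distances, these shares include the WT site itself. It made up 5461 of the 10283 uncalled sites but 7 of the 151 and 2 of the 161 raised ones, so the sets are not alike. No test was made between these sets.

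**Figure D3:**
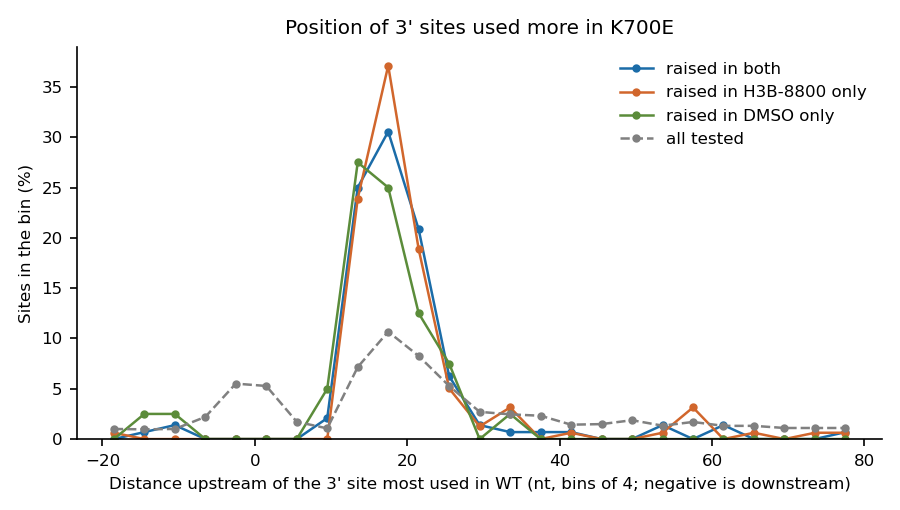
Share of sites (vertical, %) by distance upstream of the 3′ site most used in WT (horizontal, nucleotides in bins of 4, negative values downstream), for sites raised in both treatments, in H3B-8800 only, in DMSO only and for all tested sites. The highest bin of each line but the DMSO-only one is 16 to 19 nucleotides, with 30.6% of sites raised in both, 37.1% of those raised in H3B-8800 only and 10.7% of all tested sites; the DMSO-only line is highest at 12 to 15 nucleotides, with 27.5%.

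Among the persisting 3′ sites, 151 were raised and 51 lowered in K700E. The median level of the raised sites was 0.82% to 0.95% in the WT DMSO libraries and 23.9% to 25% in the K700E DMSO libraries. In H3B-8800 it was 1.53% to 1.81% in WT and 29.9% to 32.2% in K700E. K700E use was higher in H3B-8800 than in DMSO at 89 of these sites and lower at 62. The mean K700E level exceeded 50% at 27 sites in DMSO and at 38 in H3B-8800. These sites had to be called in H3B-8800, which leaves out DMSO calls that became small there, so the counts describe these sites only.

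The largest persisting difference was at ZNF530, a zinc finger gene, whose gained site lies 17 nucleotides upstream of the WT site (chr19:57605669-57605685, + strand, first in the list of sequences). Its share of the exon start's reads was 1.39%, 0% and 2.13% in WT and 51.6%, 44.4% and 49.3% in K700E in DMSO, and 7.89%, 2.94% and 11.4% against 88.0%, 87.7% and 93.7% in H3B-8800. The groups did not overlap in either treatment, and the H3B-8800 difference of 82.4 points had an adjusted p of 7.1e-05 (limma).

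TPP2, a cytosolic tripeptidyl peptidase, used a site 14 nucleotides upstream (chr13:102646280-102646293, +) at 0.47%, 0.33% and 0.34% in WT and 46.8%, 46.1% and 43.7% in K700E in DMSO. In H3B-8800 the values were 9.49%, 5.10% and 2.20% against 86.0%, 90.1% and 80.2%, a difference of 79.8 points (adjusted p 1.5e-05). The WT samples were spread more widely under the drug but stayed clear of the K700E samples. ECT2, a guanine nucleotide exchange factor needed for cytokinesis, used a site 18 nucleotides upstream (chr3:172762398-172762415, +) at 0.72%, 1.45% and 1.18% against 40.2%, 46.1% and 43.8% in DMSO and at 3.88%, 5.05% and 3.28% against 71.0%, 72.8% and 77.8% in H3B-8800. MAN2A1, a Golgi mannosidase (29 nucleotides upstream, chr5:109847628-109847656, +), had 0%, 1.15% and 1.74% against 73.0%, 69.1% and 68.9% in H3B-8800, with a DMSO difference of 40.6 points. In these 4 genes the K700E level was higher in each H3B-8800 library than in any DMSO library of K700E.

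Other large persisting differences were alike in size in both treatments. ORAI2, a store-operated calcium channel subunit, used its upstream site (23 nucleotides, chr7:102436202-102436224, +) at 80%, 69.2% and 75.1% in K700E in DMSO and at 76.0%, 84.3% and 83.2% in H3B-8800, with WT at 1.26% to 3.86% and 2.13% to 3.12%. DPH5, an enzyme of diphthamide synthesis (14 nucleotides, chr1:100992741-100992754, -), stood at 69.6%, 64.6% and 65.9% and then 66.1%, 59.6% and 76.0% in K700E, and WT was 0% in all 3 H3B-8800 libraries. GCC2, a golgin (12 nucleotides, chr2:108486499-108486510, +), stood at 71.4%, 70.4% and 79.0% and then 70.1%, 72.3% and 61.2%, with WT between 0% and 3.45%. The K700E ranges of the 2 treatments overlapped in each of these 3 genes, with H3B-8800 differences of 78.4, 67.2 and 66.1 points.

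SUN1, an inner nuclear membrane protein that links the nucleus to the cytoskeleton, had a raised site 91 nucleotides upstream (chr7:849832-849922, +), outside the usual distance. WT levels were 5.72%, 7.86% and 6.2% in DMSO and 1.8%, 17.2% and 10.1% in H3B-8800, and K700E levels were 55.8%, 62.9% and 65.5%, then 84.0%, 75.0% and 73.1%. MTERF2, of the mitochondrial transcription termination factor family, was the lowered site among the 10 largest. Its main WT site (chr12:106985225, -) stood at 76.0%, 91.2% and 88.9% in WT and 8.91%, 5.31% and 1.04% in K700E under H3B-8800, and at 76.3%, 77.1% and 81.7% against 7.61%, 9% and 12% in DMSO. Neither gene's groups overlapped in either treatment.

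**Figure D4:**
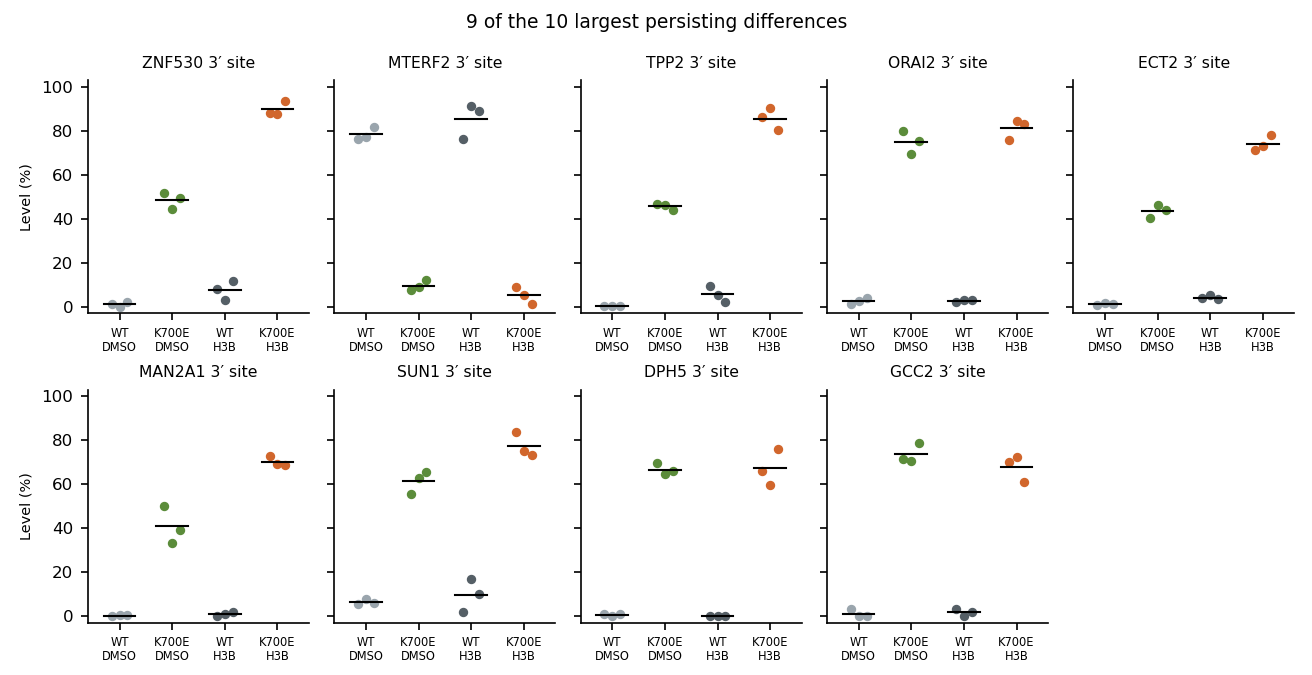
Level (vertical, %) of 9 of the 10 largest persisting differences in each library (points, 3 per group) with the group mean (bar), for WT and K700E in DMSO and in H3B-8800. In each panel the K700E points lie clear of the WT points in both treatments; TPP2 moves from a K700E range of 43.7% to 46.8% in DMSO to 80.2% to 90.1% in H3B-8800, whereas ORAI2, DPH5 and GCC2 keep overlapping K700E ranges.

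The size of a persisting difference varied widely between treatments. It was larger in H3B-8800 at 129 events and smaller at 101. These events had to be called in H3B-8800, which leaves out DMSO calls whose difference was too small there. Over all 382 DMSO calls, a set chosen in DMSO, the difference was larger in H3B-8800 at 142. C1D, a cofactor of the nuclear exosome, went from 18.2%, 17.2% and 18.8% in K700E in DMSO to 56.9%, 58.9% and 59.9% in H3B-8800 at a site 17 nucleotides upstream (chr2:68047320-68047336, -), with WT at 0.47% to 1.14% and 1.35% to 4.42%. TTI1, a scaffold of the TTT complex that stabilises PIKK kinases, did the opposite: K700E stood at 60.7%, 58.8% and 68.6% in DMSO and at 14.9%, 26.5% and 17.2% in H3B-8800, with WT at 3.10% or less (chr20:38002777-38002793, -, 17 nucleotides). FASTKD1, which acts on mitochondrial RNA, likewise had differences of 36.3 points in DMSO and 11 in H3B-8800. These genes were named as extremes of that ratio. The difference between treatments did not pass the test at C1D (adjusted p 0.80), TTI1 (0.306) or FASTKD1 (0.667).

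The sites whose sequences are printed show the same range. ZNF410, a zinc finger transcription factor, stood at 27.5%, 29.4% and 32.4% in K700E in DMSO and at 71.7%, 76.2% and 76.0% in H3B-8800, with WT at 0.25% to 0.51% and 10.6% to 12.7%. LIG3, a DNA ligase of nuclear and mitochondrial repair, rose to 59.5%, 72.7% and 39.5% in K700E against 5.71%, 0% and 5.88% in WT under H3B-8800, the widest spread between K700E lines among these. ZDHHC16, a palmitoyltransferase, had differences of 47.5 points in DMSO and 44.0 in H3B-8800, ERGIC3, of the early secretory pathway, 28.8 and 29.4, and PSME2, a proteasome activator subunit, 39.95 and 36.9. All 5 were called in both treatments.

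Genes known as targets of mutant SF3B1 kept most of their differences. The list of 39, drawn from prior knowledge of the mutant with results of these data already in view, held 554 tested events, of which 36 were called in H3B-8800 (6.50%, 24 higher and 12 lower) and 37 in DMSO, against 0.512% and 0.35% over all events. In 19 genes the same event was called in both treatments, and 2 more had calls in each treatment at different events. ANKHD1 showed 77.9%, 83.2% and 83.4% in K700E in DMSO and 88.7%, 89.4% and 89.4% in H3B-8800 at a site only 9 nucleotides upstream (chr5:140438494-140438502, +), while WT stood at 4.81%, 8.89% and 6.45% and then at 23.0%, 28.2% and 24.6%. Its difference was 74.8 points in DMSO and 63.9 under the drug. MAP3K7, the TAK1 kinase upstream of NF-kappaB, stood at 61.0%, 69.6% and 51.7% against 9.01%, 3.21% and 9.62% in H3B-8800. DYNLL1, a dynein light chain, stood at 38.1%, 40.2% and 43.5% against 5.28%, 5.64% and 5.14%, and its differences of 37.2 and 35.2 points were nearly equal in the 2 treatments.

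The remaining called genes of the list differed by 14.1 to 47.7 points in size in H3B-8800. TMEM14C, a mitochondrial protein of haem synthesis, had 40.1 points. SEPT6, a septin, had 42.3 points, ARMC9 47.7, OXA1L, a mitochondrial insertase, 17.7, METTL5, an RNA methyltransferase, 14.4 and SNRPN, a snRNP protein, 14.1. SUGP1, the spliceosome protein whose contact with SF3B1 is known to be weakened by the mutation, had an intron kept at 24.2%, 27.4% and 30.6% in WT and 1.21%, 0.73% and 0.71% in K700E under H3B-8800 (chr19:19303848-19305848, -). Of the listed genes, BRD9 had a call in DMSO and none in H3B-8800, and EI24, SERBP1, HINT2 and UQCC1 had calls in H3B-8800 and none in DMSO. The HINT2 intron, with a difference of -20.9 points, lost its call without any 1 of 5 H3B-8800 libraries (largest adjusted p 0.0990).

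Most events called in DMSO only differed less, but in the same direction, in H3B-8800. They were chosen as not called in H3B-8800, so a smaller difference there is in part built in. Of the 152, 140 (92.1%) kept their direction in H3B-8800, against 58.0% over all tested events with a difference other than 0. At least 10 points of difference remained at 52 of the 152 and an adjusted p under 0.05 at 27, while 73 met neither condition. WT replicate 3 lay nearer to the other WT samples than to the K700E mean at 129 of the 152 in H3B-8800. This line was also among the WT samples that chose the 152, and the share over all tested events was not computed. The 43 raised 3′ sites among them had medians of 16.3% to 18.7% in K700E in DMSO and 10.5% to 12.3% in H3B-8800, with WT at 1.48% to 1.89% and 2.63% to 3.5%. ATAD2B, a bromodomain ATPase with its sequence above, stood at 18.1%, 21.7% and 17.8% in K700E in DMSO and at 1.36%, 2.45% and 4.19% in H3B-8800, where WT was 0%, 1.11% and 0%. WDR34, a dynein-2 intermediate chain, stood at 15.4%, 9.91% and 8.76% and then 7.17%, 2.58% and 2.33% in K700E, with WT at 0.31%, 0.31% and 0% and then 0%, 0.32% and 0%, and its smaller H3B-8800 difference of 3.92 points kept an adjusted p of 0.00459.

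The cassette exon of BRD9, a subunit of the non-canonical BAF complex whose inclusion brings in a stop codon, was one of these (chr5:869245-869394, -, 150 nucleotides). It was included at 5.49%, 7.63% and 5.36% in WT and 41.7%, 50.6% and 47.8% in K700E in DMSO. In H3B-8800 the values were 4.37%, 3.87% and 4.75% against 12.3%, 11% and 16.1%. The K700E lines stayed above WT with no overlap, but by 8.80 points (adjusted p 0.0152), under the 10 points needed for a call. The difference between the treatments was -31.7 points and did not pass the test, which was made on log2 odds (adjusted p 0.19).

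Of the 43 exons called in DMSO only, 36 had a lower WT mean in H3B-8800 than in DMSO. The 26 exons lower in K700E had medians of 79.3% to 80.4% in WT and 58.2% to 62.2% in K700E in DMSO, and 35.4% to 40.9% and 26.5% to 29.1% in H3B-8800. DLST, a subunit of the 2-oxoglutarate dehydrogenase complex, was one at 2 exons, although another of its exons and a 3′ site were called in H3B-8800 only or could not be placed. Its 34-nucleotide exon (chr14:74882591-74882624, +) was at 91.5%, 87.0% and 88.7% against 57.4%, 62.9% and 51.5% in DMSO and at 35.6%, 32.9% and 24.6% against 22.4%, 22.2% and 18.8% in H3B-8800, a remaining difference of -9.89 points with an adjusted p of 0.473. At its other exon (chr14:74885586-74885634, +) the levels were 65%, 54.7% and 53.3% against 34.6%, 31.4% and 26.9%, and then 7.62%, 10.1% and 5.36% against 9.62%, 8.44% and 8.47%, where the groups overlapped. The DMSO call at this exon was lost when any of 8 single libraries was left out (largest adjusted p 0.102).

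Some DMSO-only events, named after their values were seen, had overlapping groups or a difference of the other sign in H3B-8800. An intron of FKBP14, an endoplasmic reticulum prolyl isomerase, was kept at 75.9%, 79.7% and 81.4% in WT and 33.3%, 53.2% and 36.9% in K700E in DMSO, and at 14.0%, 23.8% and 19.6% against 29.9%, 16.1% and 13.1% in H3B-8800, where the groups overlapped. An intron of UBA7, the ISG15-activating enzyme, had a K700E difference of -33.7 points in DMSO and one of 1.81 in H3B-8800, with H3B-8800 levels of 53.4%, 63.1% and 72.0% against 68.0%, 58.2% and 67.8%. An intron of SUN1 downstream of its gained site was kept at 34.8%, 41.8% and 43.6% against 64.8%, 64.0% and 64.0% in DMSO and at 85.0% to 90.8% in all 6 H3B-8800 libraries. The alternative 5′ site of NAA16 was at 33.8%, 32.2% and 38.4% in WT and 61.1%, 54.6% and 58.9% in K700E in DMSO, and at 61.3%, 57.6% and 57.9% against 46.1%, 44.1% and 44.4% in H3B-8800. Its groups were apart in both treatments with the sign turned, from 23.4 to -14.1 points, and the H3B-8800 difference did not pass the test (adjusted p 0.345). The DMSO calls of FKBP14, NAA16 and the SUN1 intron were each lost in at least 1 fit without a single library.

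Events called in H3B-8800 only mostly differed slightly in DMSO already. Of the 324, 302 had the same direction in DMSO, or 96.8% of the 312 with a value other than 0 there. The share was 58.0% over all tested events and 63.5% over the 3′ sites. Where WT is at 0%, a difference can only be 0 or above, so at such sites the direction was in part fixed beforehand. Of the 324, 174 had an adjusted p under 0.05 in DMSO with a difference under 10 points. A further 18 differed by 10 points or more without passing the test, and 132 met neither condition. The 161 raised 3′ sites had medians of 0% in each WT DMSO library and 3.47% to 4.02% in K700E, and of 0.72% to 0.90% and 18.4% to 18.8% in H3B-8800. WT replicate 3 lay nearer to the other WT samples at 286 of the 324 events in DMSO. The same line was among the WT samples used to choose these events, and the share over all tested events was not computed.

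STAT4, a transcription factor of cytokine signalling, had the largest gain among the sites raised in H3B-8800 only (chr2:191064959-191064977, -, 19 nucleotides upstream). It was at 0% in all WT and 6.88%, 7.5% and 12.5% in K700E libraries in DMSO, and at 4.00%, 4.55% and 5.17% against 59.1%, 55.0% and 49.2% in H3B-8800. The WT site of the same exon was called in both treatments, with differences of -13.5 and -64.5 points, so the 2 sites of 1 exon start fell in different classes. STAT4 was thinly read, with as few as 22 reads in a library, and the DMSO call at the WT site was lost without any 1 of 4 DMSO libraries.

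Further 3′ sites called in H3B-8800 only were named after their values were seen, by the size of their difference and not by function. TTK, a spindle checkpoint kinase, used a site 21 nucleotides upstream (chr6:80042098-80042118, +) at 6.58%, 7.17% and 7.69% in K700E in DMSO and at 33.8%, 39.1% and 42.8% in H3B-8800, with WT at 1.87% or less throughout. CDC23, a subunit of the anaphase-promoting complex, used one 20 nucleotides upstream (chr5:138201449-138201468, -) at 2.78%, 2.86% and 3.2% and then 37.3%, 46.9% and 37.4%, with WT at 4.19% or less. The WT site of CUL1, the scaffold of SCF ubiquitin ligases, fell to 63.7%, 63.7% and 63.3% in K700E against 99.1%, 99.1% and 97.9% in WT under H3B-8800. In DMSO it was at 96.8%, 95.4% and 98.0% against 100%, 99.9% and 99.9%, a difference of -3.16 points.

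WASHC4, of the actin-regulating WASH complex, had a site at 2.52%, 4.49% and 1.35% in K700E in DMSO and at 39.2%, 37.0% and 40.6% in H3B-8800, with WT at 0.51% or less (chr12:105164093-105164110, +, 18 nucleotides). TESK1, a testis-associated kinase acting on cofilin, had WT at 0% in all 6 libraries and K700E at 32.7%, 39.4% and 39.7% in H3B-8800. DHX29, a helicase of translation initiation, showed a WT site that was lower in both genotypes under the drug, at 87.8%, 81.7% and 85.9% in WT and 51.8%, 49.1% and 50.01% in K700E. HAX1, an apoptosis regulator, had an annotated site, the one most used in WT under the drug, at 80.5%, 85.9% and 91.9% in WT against 43.2%, 40.8% and 44.9% in K700E, with a DMSO difference of -25 points that did not pass the test. Its call was lost without any 1 of 5 H3B-8800 libraries (largest adjusted p 0.0757).

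HECTD3, TMEM87A and MRPL27, whose sequences are printed above, were of this class. HECTD3, a ubiquitin ligase, went from 5.78%, 5.6% and 7.76% to 40.8%, 35.3% and 35.4% in K700E, with WT at 2.31% to 4.68% in H3B-8800 and a difference of 33.7 points. TMEM87A, a Golgi membrane protein, went from 1.21%, 1.09% and 2.86% to 20.6%, 16.3% and 19.1%, and MRPL27, a mitochondrial ribosomal protein, from 3.73%, 4.08% and 4.17% to 15.9%, 13.8% and 18.4%. WT stayed under 1% at both in H3B-8800. In DMSO the MRPL27 site already had an adjusted p of 0.000347, with a difference of 3.68 points.

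An event called in 1 treatment is not thereby shown to differ between them, so the difference of the 2 K700E differences was tested. As for the other calls, the test was on log2 odds. Points given beside its adjusted p come from group means and were not themselves tested. It was called at 10 of 109076 events (0.00917%), of which 1 had been called in DMSO only and 6 in H3B-8800 only. At an unadjusted p under 0.05 there were 7891 events (7.23%), among them 77 of the 152 DMSO-only, 137 of the 324 H3B-8800-only and 40 of the 230 persisting events. The sets were chosen by calls from the same libraries and fit, which by itself raises the single-treatment counts, so these are a description. With culture or line as a block, which pairs the 2 treatments of the same cells, 0 events were called by limma, 8310 had an unadjusted p under 0.05, and all 10 events were among the latter. The count was also 0 without WT replicate 3, K700E replicate 1 or K700E replicate 2 of the H3B-8800 libraries, 2 without WT replicate 2, 3 without K700E replicate 3 and 5 without WT replicate 1, and 16 without WT replicate 1 or K700E replicate 2 of the DMSO libraries.

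The 6 events called in H3B-8800 only with the difference between treatments called were 5 at 3′ sites and 1 intron. At NPLOC4, a cofactor of the p97 ATPase, the site 22 nucleotides upstream (chr17:81613495-81613516, -) was at 0% in all 6 WT libraries, at 1.40%, 0.74% and 1.2% in K700E in DMSO and at 13.4%, 15% and 13.4% in H3B-8800 (difference of differences 12.8 points, adjusted p 0.013). ACSF3, a mitochondrial acyl-CoA synthetase, showed 0% in WT and 0.51%, 0.48% and 1.41% and then 21.0%, 15% and 18.2% in K700E (chr16:89120782-89120800, +, 19 nucleotides). ATXN7, a SAGA complex subunit, showed 0% in WT and 2.19%, 1.14% and 0.98% and then 12%, 25.6% and 16.0% (chr3:63988035-63988058, +, 24 nucleotides). All WT libraries of these 3 genes were at 0 and all K700E libraries above it.

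NOD1, an innate immune receptor of bacterial peptidoglycan, was at 0% in all 9 other libraries and at 10.4%, 16.6% and 9.51% in K700E in H3B-8800 (chr7:30459241-30459259, -, 19 nucleotides). Without K700E replicate 2 its difference was 9.96 points, just under the size needed. At EDRF1 the WT site (chr10:125721204, +) stood at 93.7%, 94.2% and 96.7% in K700E in DMSO and 71.9%, 75.5% and 68.4% in H3B-8800, with WT at 97.1% to 99.1%. An intron of LTN1, the ubiquitin ligase of ribosome-associated quality control, was kept at 56.5%, 55.7% and 64.2% in WT and 19.1%, 12.4% and 12.3% in K700E under the drug (chr21:28943905-28944382, -), and at 1.38% to 3.52% in all DMSO libraries. Its difference of differences, -45.3 points (adjusted p 0.0351), was the largest of the 10.

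The event called in DMSO only was a 62-nucleotide exon of TAF2, a TFIID subunit (chr8:119794780-119794841, -). It was included at 0.49%, 0% and 0.17% in WT and 20%, 18.3% and 18.6% in K700E in DMSO, and at 6.40%, 9.86% and 10.0% against 15%, 12.6% and 17.8% in H3B-8800. WT inclusion was thus higher under the drug and K700E inclusion somewhat lower, with the groups still apart though the H3B-8800 difference of 6.38 points did not pass the test. The difference of differences was -12.4 points (adjusted p 0.024). Exons of SOGA1, LNPK and NME7 made up the other 3, and neither treatment's own difference was called there. LNPK, an endoplasmic reticulum junction protein, had its 52-nucleotide exon at 68.1%, 77.2% and 71.8% in WT and 86.6%, 86.9% and 86.1% in K700E under H3B-8800, against 100% in all WT and 98.5% to 99.2% in K700E libraries in DMSO.

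**Figure D5:**
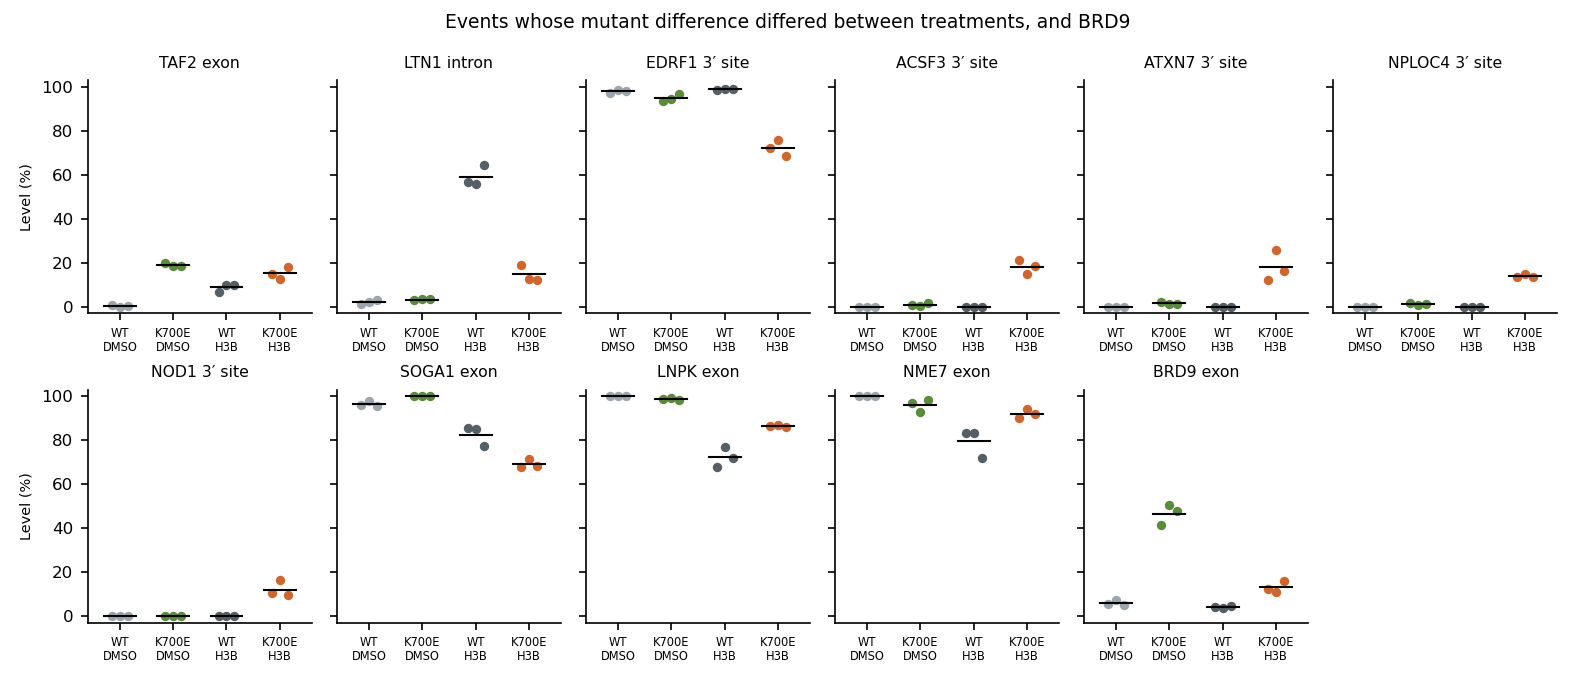
Level (vertical, %) in each library (points, 3 per group) with the group mean (bar), for the 10 events whose K700E difference differed between treatments and, in the last panel, the BRD9 exon, whose difference between treatments did not pass the test. NPLOC4, ACSF3, ATXN7 and NOD1 are at 2.19% or less except in K700E under H3B-8800, and the LTN1 intron is at 3.52% or less except in H3B-8800, where WT lies between 55.7% and 64.2% and K700E between 12.3% and 19.1%.

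Introns moved in both directions under H3B-8800, 32 kept more and 51 kept less in K700E. With read-number weights the counts were 94 and 232, and on percentage points 224 and 523. Of the 32, 19 ended within 100 nucleotides of a raised 3′ site, against 0 of the 51 and 0.407% of all tested introns. In these the stretch added by the gained site lies inside the intron, so reads over that exon-intron junction can come from either product. STAT4 was such a case: its intron (chr2:191064959-191066429, -) was at 6.67%, 7.32% and 11.5% in WT and 56.4%, 45.7% and 41.3% in K700E under the drug, beside the site 19 nucleotides upstream described above. WASHC5, of the WASH complex (12.6%, 18.7% and 20.03% against 61.1%, 47.2% and 51.3%), was a further one.

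The introns kept less in K700E had high WT levels under the drug. Such a call needs WT at least 10 points above K700E, so this is in part built in. Over the 12 called in both treatments, the medians were 20.7% to 24.3% in WT and 3.79% to 4.83% in K700E in DMSO, and 49.6% to 55.4% against 12.3% to 13.6% in H3B-8800. Over the 38 called in H3B-8800 only, they were 4.51% to 6.6% in WT and 2.23% to 2.7% in K700E in DMSO. In H3B-8800 they were 30.3% to 35.3% against 11.1% to 13.2%. DCAF16, a substrate receptor of CUL4 ubiquitin ligases, had the largest such difference (chr4:17804772-17805106, -), at 36.0%, 40.7% and 42.1% against 3.93%, 3.46% and 2.66% in DMSO and at 76.8%, 67.3% and 76.1% against 11%, 13.0% and 9.86% in H3B-8800. The long noncoding RNA RP11-242D8.1 kept an intron at 63.2%, 78.6% and 57.9% in WT and 16.3%, 12.2% and 10.2% in K700E, with a like DMSO difference of -55.0 points. Intron calls depended on single libraries more than 3′ site calls did: without 1 library the counts ranged from 21 to 33 higher and 18 to 50 lower.

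Of the 54 exons called under H3B-8800, 27 were included more and 27 less in K700E, an even split that the weighted and percentage-point counts given above (350 and 97, 960 and 318) did not have. Without 1 library these counts ranged from 13 to 23 and from 14 to 24. The 23 called higher in H3B-8800 only had medians of 46.9% to 51.1% in WT and 65.9% to 73.1% in K700E under the drug, and above 95% in every DMSO library. PPIA, cyclophilin A, had a 157-nucleotide exon (chr7:44798748-44798904, +) at 24.5%, 20.4% and 17.5% in WT and 49.4%, 47.0% and 47.5% in K700E under H3B-8800, and at 82.9% to 88.4% in DMSO. SLC35F2, a solute carrier, had 16.4%, 22.3% and 18.8% against 41.4%, 44.7% and 45.0%, a call lost without any 1 of 5 H3B-8800 libraries. An exon of ZNF530 had 25%, 30.2% and 31.8% against 55.1%, 55.2% and 65.9% (adjusted p 0.0487) and was called in only 1 of the 12 fits that left out a library.

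Exons lower in K700E were led by DCAF16, WDR62 and UBA7. In DCAF16 the exon next to the intron described above (chr4:17805107-17805225, -) was at 69.7%, 56.9% and 63.6% in WT and 24.9%, 24.3% and 27.8% in K700E under the drug, and the difference of -37.7 points was near the -31.7 in DMSO. WDR62, a spindle pole protein, had an exon (chr19:36071556-36071716, +) at 58.5%, 54.6% and 57.9% against 25.6%, 24.3% and 22.3% in H3B-8800 and at 88.2%, 89.8% and 90.7% against 79.6%, 79.4% and 78.6% in DMSO. The UBA7 exon was at 60.0%, 60.0% and 69.0% against 18.7%, 38.7% and 30%, and its call was lost in 10 of the 12 fits without 1 library. No group overlap occurred at these 3 exons.

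Few alternative 5′ sites were called, 1 higher and 1 lower of 7392 tested. TPT1, a translationally controlled tumour protein, used the site at 78.7%, 77.0% and 77.4% in WT and 89.9%, 92.6% and 93.9% in K700E under H3B-8800, with a like difference of 13.2 points in DMSO. TANGO6, of Golgi organisation, had 100% in WT and 92.9%, 85.7% and 88.0% in K700E, on as few as 21 reads. Both calls were lost without any 1 of 5 H3B-8800 libraries, with largest adjusted p of 0.110 and 0.111.

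RPM over each junction were set beside the shares. At the 151 sites raised in both treatments, K700E libraries gave a median of 0.927 RPM at the gained site in DMSO and 0.809 in H3B-8800, and 2.26 and 1.51 at the other sites of the exon. Site by site the gained site fell at 74 of the 151 (49.0%), with a median ratio of 1.01, against a fall at 54.3% of 9978 uncalled sites. At the 161 sites raised in H3B-8800 only, the gained site went from 0.197 to 0.723 and the other sites from 4.75 to 2.42. The gained site had more RPM in H3B-8800 than in DMSO at 151 of these 161. At the 43 sites raised in DMSO only, the gained site went from 0.788 to 0.361, with fewer reads at 33 of them, and the other sites from 2.31 to 2.14. These sets were chosen on shares made from the same reads, so the values are a description with no test.

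Most other gene lists had shares of called events near the 0.512% of all events. In the SF3B, SF3A and U2 recruitment list 1 of 203 tested events was called (0.493%), the SUGP1 intron. The list of SR proteins and splicing kinases had 1 of 247, an intron of the kinase PRPF4B at 72.4%, 73.2% and 72.3% in WT and 48.7%, 51.7% and 41.3% in K700E, a call lost without any 1 of 4 H3B-8800 libraries. The apoptosis list had 1 of 207: a site of BCL2L1, which encodes the survival factor BCL-XL, was at 82.5%, 89.0% and 80.1% in WT and 94.6%, 97.7% and 97.4% in K700E under the drug, and at 35.8%, 38.9% and 43.4% against 73.4%, 76.1% and 77.4% in DMSO. It was the less used of the 2 sites in WT in DMSO and the more used one under the drug. The B cell receptor list had 0 of 408 in H3B-8800 (limma) and 1 in DMSO, in SOS1, a guanine nucleotide exchange factor for Ras, whose site was at 12.5%, 8.51% and 11.3% in K700E and 0% in all WT libraries in DMSO and at 2.74%, 1.59% and 3.08% against 1.25%, 0% and 0% in H3B-8800. APAF1 and the kinase CLK2 had calls in DMSO and none in H3B-8800.

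The NF-kappaB list had 5 of 438 events called (1.14%), 4 of them not called in DMSO. CYLD, a deubiquitinase that restrains the pathway, used a site 16 nucleotides upstream (chr16:50786839-50786854, +) at 4.58%, 4.68% and 5.47% in WT and 22.2%, 21.6% and 21.8% in K700E under H3B-8800, with 2.32%, 2.42% and 3.05% in K700E in DMSO. NFKB1, the p105 and p50 subunit, gained a site 55 nucleotides downstream of the WT one at 12%, 16.2% and 15.3%, against 0.51% or less in WT and 1.91% to 2.11% in K700E in DMSO. IKBKG, the NEMO subunit of the IKK complex, gained one at 14.6%, 7.80% and 9.66% against 0% in WT, and an intron of the kinase IRAK1 differed by -10.8 points. The fifth was the MAP3K7 site above, and TNIP1, called in DMSO, kept 6.68%, 8.17% and 9.42% in K700E against under 1% in WT.

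The nonsense-mediated decay list had 2 of 315 events called (0.635%) and the DNA damage list 2 of 790 (0.253%), against 0.512% over all tested events. UPF3B, a core decay factor, used a site 17 nucleotides upstream at 27.0%, 18.5% and 18.3% in K700E against 0.61% to 1.67% in WT under H3B-8800, with 6.90% to 8.97% in K700E in DMSO. NBAS was at 0% in all 6 DMSO libraries and at 17.6%, 17.6% and 26.4% against 2.06%, 5.15% and 7.36% in H3B-8800, on as few as 28 reads, and its call (adjusted p 0.0486) was lost in 11 of the 12 fits without 1 library. FANCD2, of the Fanconi anaemia repair pathway, stood at 16.9%, 8.49% and 16.9% against 0% in WT under the drug and at 3.5%, 7.25% and 8.58% in K700E in DMSO, where K700E ranges of the 2 treatments overlapped (8.49% against 8.58%). An exon of FANCD2 was called in DMSO and had a like difference in H3B-8800, -16.0 points, that did not pass the test (adjusted p 0.314). TTI1, described above, was the other.

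Spliced reads per gene were a further readout of the same libraries, but not one independent of the splicing events. Only exon-exon reads of annotated introns were counted. Use of a 3′ site outside them, or a kept intron, can thus lower a gene's count by itself. The part of this in the gene differences was not tested. Of 10182 genes, 1133 were higher and 315 lower in K700E under H3B-8800 (14.2%), and 296 and 199 in DMSO (4.86%), with 371 called in both in the same direction. The median gene was 0.12 higher in log2 in K700E, and with the libraries scaled to equal medians the H3B-8800 counts were 646 and 614. Without WT replicate 1, 2 or 3 in H3B-8800 the counts were 553 and 144, 588 and 121, and 573 and 131, and the lower count was 208 without WT DMSO replicate 2. Among 148 genes with a site raised in both treatments, 17 (11.5%) had fewer spliced reads in H3B-8800 and 26 (17.6%) in DMSO, and among 158 with a site raised in H3B-8800 only 16 (10.1%) had fewer in H3B-8800 and 11 (6.96%) in DMSO, against 3.09% and 1.95% of all genes. More spliced reads in H3B-8800 were found for 16 of the 148 and 14 of the 158. Neither share exceeded that over all genes, 1133 of 10182. Of 42 genes with a site raised in DMSO only, 3 (7.14%) had fewer and 6 more in H3B-8800, and 5 (11.9%) had fewer in DMSO. SF3B1 itself was at 1603 to 1836 RPM in H3B-8800 and 1004 to 1155 in DMSO, with no call between genotypes.

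TPP2 was among the genes lower in both treatments, with 205, 202 and 161 RPM in K700E against 328, 382 and 392 in WT under the drug (log2 difference -0.96 ± 0.11 SE, adjusted p 0.00108) and a log2 difference of -1.40 in DMSO. LTN1 was lower in H3B-8800, at 71.0, 55.7 and 61.7 against 104, 106 and 97.2 (-0.71, adjusted p 0.00393). MAP3K7 and BRD9 were lower in DMSO (-0.95 and -0.71) and did not pass the test in H3B-8800 (-0.32, adjusted p 0.101, and -0.26, adjusted p 0.152). SUGP1 was higher in both, by 0.73 in H3B-8800 and 0.86 in DMSO. No such call was made for ECT2, ORAI2 or STAT4.

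The largest gene differences, 5 in each direction, varied between samples of a group. CXCL13, a chemokine, was at 0.327, 2.81 and 32.3 RPM in K700E under H3B-8800 and at 0.126 or less in WT, and line 15b alone carried most of it. FCRL3, an Fc receptor-like B cell protein, was at 34.4, 12.3 and 3.23 against 0.160 to 0.381, and ZEB2, a transcription factor, at 25, 2.21 and 4.78 against 0.0602 to 0.356. GBP1, an interferon-induced GTPase, was at 14.3, 2.70 and 4.51 against 0.221 to 0.314, and SEMA6A, a semaphorin, was higher by 4.42 in log2. Lower in K700E were PRR34-AS1 (0, 0.260 and 0 against 2.39 to 3.25), ACTN1, an actin crosslinker (0.196, 1.43 and 0.264 against 3.08 to 6.42), SYTL4, a vesicle protein (0.131 to 0.427 against 2.11 to 2.49), IFI44L, an interferon-induced gene (-2.34), and NFATC4 (-3.12). For NFATC4 the spread lay in WT, at 0.381, 0.521 and 1.97 RPM in H3B-8800 and 0.988, 0.692 and 6.55 in DMSO, with replicate 3 highest, against 0.0433 to 0.203 in K700E under the drug.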

How the data were processed

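Poly(A) RNA-seq of 12 libraries of the MEC1 line was used, in 4 groups of 3. The deposited table gives inclusion levels in percent, per the file headers, beside text that holds junction read numbers; the authors trimmed adapters with cutadapt 2.4 and used hg38, per the submitters' processing notes. No source used here names the aligner or event tool. Each sample joins 3 technical runs by its labels, and the 36 percent columns of single runs were not used.

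Inclusion and exclusion reads were tested with limma 3.58.1 (R 4.3.3) on log2((inclusion + 0.5)/(exclusion + 0.5)) with a mean trend over all 12 libraries. Tested events had a mean level of 1% to 99%. Introns with unbalanced junctions (p under 0.05) in more than 6 libraries, and site 1 of each alternative exon end, were left out, leaving 111050 of 130309. DMSO values under 20 reads were left missing (1974 events). Spliced reads per gene, the RPM of exon-exon reads of annotated introns, were fitted likewise for genes with a mean of at least 50. P-values measure the spread between these cultures and lines. The 2 treatments of each culture or line are paired by label, and their deviations correlated at 0.015 to 0.07. The numbers of WT and K700E samples do not pair (-0.06 to -0.008). Scripts were tested on simulated data. Annotation and sequence came from GENCODE 29.

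Members and lists were chosen with earlier results of these data known. Named events were the 10 largest persisting differences, those whose difference between treatments was called, the 3 largest exons, introns and 5′ sites in each direction, the 3 extremes of the treatment ratio, and called genes of the lists; others are stated to be chosen after their values were seen. The results of 2 genes named by these rules are not reported here. Varied were the read and level filters, reads added, weights, test scale, unbalanced introns, site 1, the size threshold, blocks, the libraries fitted and each library left out.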

Additional observations from a re-analysis of the deposited data

Results flagged for a closer look

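The K700E difference in H3B-8800 differed from that in DMSO at 10 events by limma's test of the difference of differences on log2 odds, in 12 libraries. In points, H3B-8800 minus DMSO, it was 12.17 at the NOD1 3′ site (adjusted p 0.0313), -24.0 at EDRF1 (0.0417), 16.43 at ATXN7 (0.0417), 17.27 at ACSF3 (0.0441) and 12.8 at NPLOC4 (0.013). For exons it was -17.01 in SOGA1 (0.0407), 15.39 in LNPK (0.0138), 16.57 in NME7 (0.0491) and -12.35 in TAF2 (0.024). For the LTN1 intron it was -45.31 (0.0351). Every 1 of the 10 lost its call in at least 3 of the 12 fits without a library.

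SOGA1 had its exon at 100% in all 3 K700E and 95.5% to 97.7% in WT libraries in DMSO, and at 67.7%, 71.4% and 68.4% against 85.7%, 85.0% and 77.3% in H3B-8800. NME7 had its exon at 90%, 94.1% and 91.9% in K700E and 83.2%, 83.2% and 72.2% in WT in H3B-8800, and at 100% in WT and 92.7% to 98.2% in K700E in DMSO. The K700E difference thus had opposite signs in the 2 treatments at both exons. Neither H3B-8800 difference passed limma's test (adjusted p 0.344 in SOGA1 and 0.301 in NME7). The DMSO differences of 3.57 and -4.09 points were under the size needed for a call, with a group at 100% in each.

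Spliced reads per gene differed in the same way at 5 genes, in log2. The difference of differences was 0.8803 for CPSF4, a cleavage and polyadenylation factor (adjusted p 0.0268), and 2.139 for DCAF16 (0.0341). It was 0.8244 for ELP2, an Elongator subunit (0.0268), 0.9284 for SUN1 (0.0268) and 1.044 for WDR6 (0.0326). CPSF4 stood at 32.8, 31.9 and 31.9 RPM in K700E against 16.8, 18.5 and 18.3 in WT in H3B-8800, with 67.1 to 77.0 and 72.1 to 74.8 in DMSO. SUN1 stood at 97.5 to 104 in K700E against 212 to 232 in WT in DMSO and at 222 to 254 against 242 to 286 in H3B-8800. DCAF16, whose intron was kept less in K700E, stood at 9.94 to 12 against 0.502 to 0.882 in H3B-8800. A kept intron gives no exon-exon read, so the counts of DCAF16 and SUN1 are not independent of their splicing events.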

How the results depend on the processing

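Counts are events in H3B-8800 (380 higher, 189 lower) unless said otherwise. On percentage points 1616 and 1062 were called, with read-number weights 798 and 472, and with 2 reads added 291 lower. With site 1 included 410 were lower, and 265 in DMSO. Calls in H3B-8800 only (324) were 2373, 1034 and 493 on points, with weights and with 2 reads added. The difference of differences (10) was called at 724 events on points (57 of the DMSO-only and 561 of the H3B-8800-only calls), 20 with 2 reads added (4 and 14), and 0 with weights (0 and 0) or no level filter (0 and 0). Of the DMSO-only calls, 3 had it with unbalanced introns kept and 0 at 15 points. The median H3B-8800 difference over DMSO calls (18.8) was 19.9, 17.2, 20.8, 17.3, 13.4, 17.4, 17.7 and 22.5 points with 10 reads, 50 reads, no level filter, 2 reads added, points, weights, unbalanced introns and 15 points. The causes were not tested.

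Chosen after seeing the data, WT replicate 3 as the only WT gave 218 and 93, 74 lower in DMSO, 142 in both, 162 in H3B-8800 only, 1 difference of differences (0 and 0 of the single-treatment calls) and a median of 21.5. With the replicate number as a block, which pairs no WT with K700E cells, 231 and 79 events and 4 and 0 genes were called. With the culture or line as a block, 0 differences of differences were called. Genes scaled to the median were 646 and 614.

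Without 1 library the ranges were 301 to 369 higher and 119 to 187 lower, 226 to 245 and 98 to 131 in DMSO, 194 to 222 in both, 108 to 170 in DMSO only, 217 to 321 in H3B-8800 only, 0 to 16 differences of differences (0 to 2 and 0 to 7), medians of 19.4 to 20.8, and 553 to 1405 and 121 to 399 genes. Of 67 named H3B-8800 calls, 57 were called in all 12 such fits and 0 reversed in any alternative. Over the 6 H3B-8800 libraries alone, 427 of the 569 calls remained. Depth limits events near 20 reads, where a 50% level spans ±20.1 points.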
